A study of Mus musculus with 6 samples.

Results

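The lung genes described here are 10 genes of fibroblast growth factor (FGF) and platelet-derived growth factor (PDGF) signalling: the ligands Fgf7, Fgf10, Fgf18 and Pdgfa and the receptors Fgfr1, Fgfr2, Fgfr3, Fgfr4, Pdgfra and Pdgfrb. They were chosen by symbol, as signals of alveolar septation, from the 12393 genes that the array's annotation names. The array carries 20 probe sets that are annotated to 1 of them and to no other gene, of 22626 probe sets that are not controls. Total RNA of whole lungs was measured on Affymetrix Mouse 430A arrays, 3 from mice given leptin and 3 from mice given saline. All animals were B6.V-Lepob/J females of 1 month, so the saline controls carried the same ob/ob mutation of the leptin gene as the treated animals, and each array came from the lung of 1 animal. The question is how supplying leptin to mice that make no functional leptin bears on the lung's transcripts. Dose, route and length of treatment are not stated in the labels.

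Alveolar septation is the growth of new walls into the sacs of the young lung, most of it in the early weeks after birth in the mouse. Pdgfa, made by the epithelium, signals to Pdgfra on fibroblast precursors of the myofibroblasts that lay down elastin at the tips of the walls. Fgf7 and Fgf10 come from the mesenchyme and act on the epithelial splice form of Fgfr2, and Fgf18 comes from the mesenchyme of the postnatal lung. Fgfr3 and Fgfr4 act together in mouse septation, where loss of both blocks it, and Pdgfrb marks pericytes and other mural cells of vessels.

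One array stood apart, and every value below is given without it first. The log2 values of saline replicate 1 had a Pearson correlation of 0.438 to 0.447 with each remaining array, against 0.973 to 0.978 between those 5 (across probe sets, so the points are not independent replicates). Control probe sets read 14.1 times as high on it at the median, and its 10th percentile of intensity was 57.0 against 16.3 to 19.2. Of the 20 FGF and PDGF probe sets, 10 read below the range of the other 5 arrays on it, 6 above and 4 within, from 0.0816 to 9.52 times the median of the other arrays. Differences are therefore leptin replicates 1 to 3 minus saline replicates 2 and 3 unless all 6 arrays are named. They are log2 differences of intensity plus 22.0, which understates changes of dim probe sets, with limma's standard error and adjusted p over all 15838 probe sets that passed a filter on low intensity. Sftpc, the gene of a surfactant protein of alveolar type II cells, read 23964 to 29732 on the 5 arrays, against 4087 on saline replicate 1. It was still among the brightest probe sets there, at percentile 98.3, against 99.99 or more on the 5 arrays.

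Promoter windows are shown for Pdgfa and Fgf18, the genes with a probe set whose groups did not overlap, and for Pdgfra, the receptor of the Pdgfa protein. Each window runs from 250 bases before to 50 bases after an annotated start, is written 5′ to 3′ on the gene's strand, and comes from RefSeq on GRCm38.p6. Capitals mark the GC box GGGCGG on either strand, the letters to which Sp family factors are known to bind. Neighbouring matches did not overlap in these windows. The 2 Pdgfa windows lie on chromosome 5 at chr5:138994232-138994531 and chr5:138994895-138995194, minus strand, the Fgf18 window at chr11:33147351-33147650, minus strand, and the Pdgfra window at chr5:75152001-75152300, plus strand.
Pdgfa window 1: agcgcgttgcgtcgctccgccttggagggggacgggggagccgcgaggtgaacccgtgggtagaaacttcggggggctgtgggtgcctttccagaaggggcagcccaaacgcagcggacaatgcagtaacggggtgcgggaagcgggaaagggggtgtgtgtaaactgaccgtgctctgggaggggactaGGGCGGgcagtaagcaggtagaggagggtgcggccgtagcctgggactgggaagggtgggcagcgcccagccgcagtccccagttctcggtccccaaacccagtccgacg
Pdgfa window 2: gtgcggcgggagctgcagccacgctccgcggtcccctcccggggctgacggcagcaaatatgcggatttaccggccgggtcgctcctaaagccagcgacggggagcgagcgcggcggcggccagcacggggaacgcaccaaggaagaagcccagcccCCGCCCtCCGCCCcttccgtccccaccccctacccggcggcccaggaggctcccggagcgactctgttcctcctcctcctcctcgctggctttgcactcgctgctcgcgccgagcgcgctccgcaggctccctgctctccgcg
Fgf18: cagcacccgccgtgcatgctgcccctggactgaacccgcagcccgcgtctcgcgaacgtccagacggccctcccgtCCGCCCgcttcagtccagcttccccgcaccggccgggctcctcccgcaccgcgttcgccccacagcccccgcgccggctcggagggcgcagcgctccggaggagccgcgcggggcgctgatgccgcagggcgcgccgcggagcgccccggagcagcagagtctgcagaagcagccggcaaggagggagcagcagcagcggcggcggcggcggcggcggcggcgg
Pdgfra: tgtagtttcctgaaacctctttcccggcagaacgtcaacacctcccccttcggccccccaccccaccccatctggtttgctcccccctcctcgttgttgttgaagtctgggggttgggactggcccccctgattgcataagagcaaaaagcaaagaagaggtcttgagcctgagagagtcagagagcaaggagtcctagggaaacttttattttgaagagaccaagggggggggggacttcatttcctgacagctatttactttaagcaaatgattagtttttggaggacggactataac
Window 1 of Pdgfa holds 1 GC box, starting 60 bases before the start, and window 2 holds 2, starting 93 and 86 bases before it. Fgf18 holds 1, starting 174 bases before the start, and Pdgfra holds 0. The Fgf18 window is 78.7% G and C and the Pdgfra window 51.0%, and the median of all 32851 windows of the table is 52.7%. For 8 of the genes, Fgfr1 and Pdgfrb not among them, 10 windows were read, with Fgfr3 and Pdgfa counted with 2 each. Of these, 7 of the 10 had a GC box, against 35.7% of all windows. The letters TTCNNNGAA, bound by STAT factors of the kind that the leptin receptor activates, were in 0 of the 10 windows and in 8.3% of all windows, reading both strands, since the motif is its own reverse complement. A match of letters is a description and does not show binding.

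**Figure D1:**
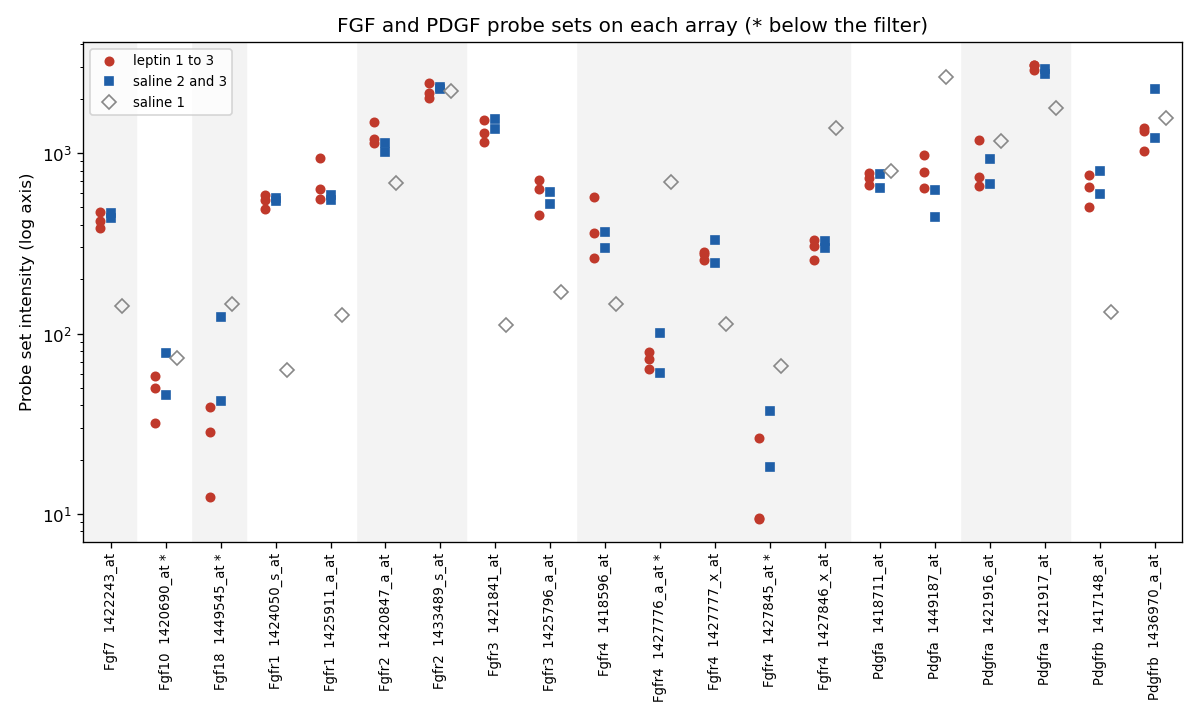
Intensity (vertical log axis) of each FGF and PDGF probe set on each array, with leptin arrays as red circles, saline replicates 2 and 3 as blue squares and saline replicate 1 as open grey diamonds, and an asterisk for the 4 probe sets below the filter. Red and blue points overlap for all probe sets but Fgf18 1449545_at and Pdgfa 1449187_at, and the diamond lies far from the other points for most.

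None of the 10 genes changed past the threshold. With limma, 0 of the 16 probe sets tested passed an adjusted p of 0.05, where 0.0442% of all probe sets did, and each had an adjusted p of 1.00. With the replicate number as a block the 7 probe sets behind that share became 0, and the FGF and PDGF probe sets stayed at 0. At an unadjusted p under 0.05 there was 1 of 16, against 4.60% of all probe sets. The groups did not overlap for 1 of 16, against 19.6% (9.10% when all 6 arrays are used), and 0 of 16 differed by 1.5-fold, against 2.15%. The rule stated by the series, which asks for 1.5-fold, p under 0.05 and here 4 of 6 pairwise comparisons, was met by 0 of 16, against 0.492%. The differences split into 8 higher and 8 lower, where 50.3% of all probe sets were higher, with a median of 0.0017 against 0.0012 over all probe sets tested, and a median size of 0.087 against 0.12. The 95% interval lay wholly inside 1.5-fold in either direction for 11 of the 16 (68.8%, and 58.2% of all probe sets). It lay inside 2-fold for 15 (93.8%, and 94.8% of all probe sets), with Pdgfa 1449187_at the exception. In bulk lung RNA, fewer cells of a type and less RNA per cell cannot be told apart.

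**Figure D2:**
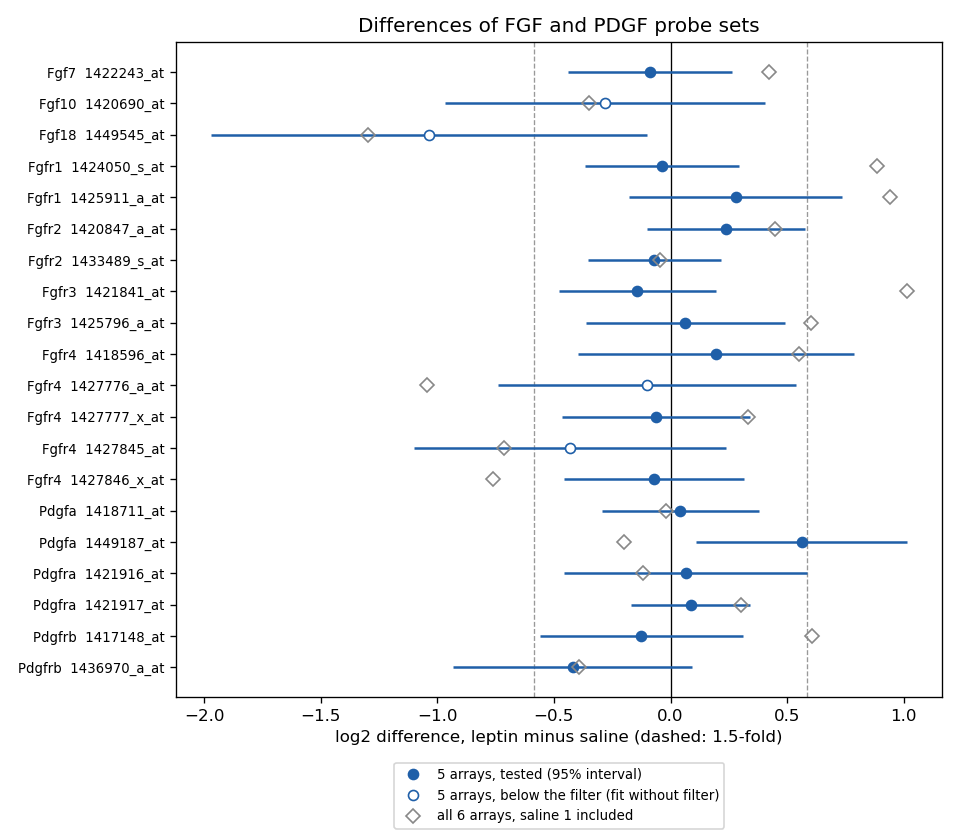
The log2 difference between leptin and saline (horizontal axis) for each probe set, with circles and 95% intervals for the 5 arrays, open circles for probe sets below the filter and grey diamonds for all 6 arrays. The intervals of all tested probe sets but Pdgfa 1449187_at include 0, and the diamonds spread from -1.30 to 1.01.

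Of the 3 FGF ligands among the 10 genes, Fgf7 alone was bright enough to be tested. Fgf7 (Entrez Gene 14178), the keratinocyte growth factor of the lung mesenchyme, read 472, 384 and 419 with leptin and 436 and 469 with saline. The saline values lie among the leptin values, and the difference was -0.09 ± 0.16 (SE). Its interval, -0.44 to 0.26, leaves out a 1.5-fold change in either direction. On saline replicate 1 it read 142, and with all 6 arrays the difference turned to 0.42 ± 0.47.

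Fgf10 and Fgf18 were below the filter and are described from a fit without one. Fgf10 (14165), which drives branching in the embryo and marks a lipid-storing fibroblast lineage, read 32.0, 58.0 and 50 with leptin and 77.8 and 45.9 with saline, with 73.2 on saline replicate 1. The groups overlapped, and the difference was -0.28 ± 0.30. Fgf18 (14172) read 39.0, 28.3 and 12.4 with leptin and 124.1 and 42.3 with saline, with 145.4 on saline replicate 1. All 3 leptin values lie below the saline values, with saline replicate 3 close above the highest of them. The Fgf18 difference was -1.04 ± 0.40, with an interval of -1.97 to -0.10 and an unadjusted limma p of 0.0338 (adjusted p = 0.998). In that fit 4.78% of all probe sets had an unadjusted p under 0.05 and 19.4% had groups that did not overlap, against 2 and 2 of the 20 FGF and PDGF probe sets. Leaving out saline replicate 2 brought Fgf18 to -0.44, leaving out saline replicate 3 brought it to -1.63, and all 6 arrays gave -1.30 ± 0.51. At 4 of 6 pairwise comparisons past 1.5-fold, it missed the series' rule on the p of the 2-sample test, 0.151. Fgf18 is also a gene of cartilage, and 7 of 10 cartilage markers, Col2a1, Sox9 and Comp among them, lay below the filter. The other 3 summed to 446 to 569 with leptin and to 437 and 467 on saline replicates 2 and 3. All 3 mesothelial markers tested were lower with leptin, at a median of -0.20 (0.93 and all 3 higher with all 6 arrays), and their summed intensity was 4365 to 4493 with leptin against 4786 and 5414 on saline replicates 2 and 3. Markers of lung fibroblasts and myofibroblasts, cells of the mesenchyme, went the other way, with 10 of 14 higher with leptin (median 0.10). With all 6 arrays 12 of the 14 were higher (median 0.46). The part of these cells in the Fgf18 difference was not tested.

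The 4 FGF receptors are tyrosine kinases with 11 probe sets here, of which 9 were tested, 4 higher and 5 lower, from -0.14 to 0.28. For each receptor the probe sets went both ways. Suffixes mark what a probe set can match: _a_at several transcripts of 1 gene, _s_at transcripts of more than 1 target, and _x_at probes that may bind unrelated transcripts.

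Fgfr1 (14182), the receptor of mesenchymal cells, read 493, 551 and 582 with leptin and 567 and 545 with saline on 1424050_s_at, a difference of -0.04 ± 0.15. On 1425911_a_at it read 557, 945 and 630 with leptin and 551 and 584 with saline, a difference of 0.28 ± 0.21. Leptin replicate 2 is the high value there, and without it the difference was 0.06. Saline replicate 1 read 62.6 and 127 on these probe sets, and with all 6 arrays they stood at 0.89 ± 0.77 and 0.94 ± 0.59.

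Fgfr2 (14183) is the receptor through which Fgf7 and Fgf10 reach the alveolar epithelium. It read 1492, 1205 and 1143 with leptin and 1144 and 1013 with saline on 1420847_a_at, where leptin replicate 3 falls just below saline replicate 2. The difference was 0.24 ± 0.15, with an interval of -0.10 to 0.57, and 0.12 without leptin replicate 1. Saline replicate 1 read 683, below the other arrays, and with all 6 the difference was 0.45 ± 0.30. On 1433489_s_at it read 2016, 2154 and 2437 with leptin and 2334 and 2279 with saline, a difference of -0.07 ± 0.13. This second probe set read 2195 on saline replicate 1, inside the range of the other arrays, and was at -0.05 with all 6. The annotation used here does not say which splice form of Fgfr2 a probe set reads.

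Fgfr3 (14184) read 1147, 1287 and 1523 with leptin and 1361 and 1542 with saline on 1421841_at, a difference of -0.14 ± 0.15. On 1425796_a_at it read 711, 635 and 456 with leptin and 608 and 523 with saline, a difference of 0.06 ± 0.19. The leptin values cover the saline values on the second, and the order of the leptin arrays is opposite on the first. Saline replicate 1 read 111 and 170, so that all 6 arrays gave 1.01 ± 0.95 and 0.60 ± 0.50.

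Fgfr4 (14186), the receptor that acts beside Fgfr3 in septation, has 5 probe sets. On 1418596_at it read 574, 264 and 363 with leptin and 367 and 296 with saline, so leptin holds both the highest and the lowest value. The difference was 0.19 ± 0.27, and -0.09 without leptin replicate 1. The 2 _x_at probe sets tested were at -0.06 ± 0.18 and -0.07 ± 0.18, with leptin values of 256 to 284 and 257 to 331 and saline values of 247 to 328 and 299 to 326. The other pair, 1427776_a_at and 1427845_at, were below the filter, with values of 60.2 to 100.4 and 9.4 to 37.4 on the 5 arrays and differences of -0.10 ± 0.28 and -0.43 ± 0.29. On saline replicate 1 the 5 Fgfr4 probe sets went opposite ways, at 146 and 113 for 1418596_at and 1427777_x_at and at 692, 66.3 and 1382 for 1427776_a_at, 1427845_at and 1427846_x_at. With all 6 arrays they ranged from -1.04 to 0.55.

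Pdgfa (18590) gave the largest difference among the tested probe sets, on 1 of its 2. On 1449187_at it read 637, 784 and 981 with leptin and 444 and 624 with saline. The lowest leptin value lies just above the higher saline value. The difference was 0.56 ± 0.20, or 1.48-fold on this scale, with an interval of 0.11 to 1.01. The unadjusted limma p was 0.0194, the adjusted p was 1.00, and 3 of 6 pairwise comparisons passed 1.5-fold, where the series' rule needs 4. On 1418711_at, which the annotation gives the same source sequence, Pdgfa read 777, 727 and 662 with leptin and 637 and 767 with saline. These groups overlap throughout, with a difference of 0.04 ± 0.15 and an interval of -0.30 to 0.38. The leptin arrays stand in opposite order on these probe sets.

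The difference of Pdgfa 1449187_at was positive without each of the 5 arrays in turn. Its lowest value was 0.33, with saline replicate 2 left out, and its highest 0.80, with saline replicate 3 left out. On saline replicate 1 this probe set read 2646, the highest value of all, and with all 6 arrays the difference turned to -0.20 ± 0.66. The other probe set read 800 there, and its difference was -0.02 ± 0.23 with all 6. Pdgfa is expressed by epithelium and by smooth muscle. Of the smooth muscle markers 6 of 7 were higher with leptin, at a median of 0.26, with groups that did not overlap for 3 of 7 (19.9% of all genes tested) and a summed intensity of 6549 to 6763 with leptin against 6635 and 5583 on saline replicates 2 and 3. Of 7 alveolar type I markers 4 were higher (median 0.03) and 4 had groups that did not overlap, 2 in each direction, and of 7 alveolar type II markers 3 were (median -0.07). The type II markers summed to 83382 to 92425 with leptin against 93571 and 94193 on these saline arrays. Of 5 platelet markers 1 was higher (median -0.13). With all 6 arrays 5 of 7 smooth muscle, 6 of 7 type I, 7 of 7 type II and 2 of 5 platelet markers were higher. Their medians were then 0.81, 0.92, 1.00 and -0.02. The part of these cells in the Pdgfa difference was not tested.

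Pdgfra (18595), the receptor through which Pdgfa calls up septal myofibroblasts, had close values in both groups on its brighter probe set. On 1421917_at it read 2885, 3060 and 3074 with leptin and 2926 and 2739 with saline. The difference was 0.09 ± 0.12, and the interval, -0.17 to 0.34, was the narrowest among the tested FGF and PDGF probe sets. On 1421916_at it read 1182, 737 and 654 with leptin and 926 and 678 with saline, a difference of 0.06 ± 0.24 that turned to -0.19 without leptin replicate 1, the high array. Saline replicate 1 read 1789 and 1166, and all 6 arrays gave 0.30 ± 0.32 and -0.12 ± 0.34. Of 14 lung fibroblast and myofibroblast markers 10 were higher and 4 lower (median 0.10), and with all 6 arrays 12 were higher (median 0.46). Their summed intensity was 54157 to 55636 with leptin against 56361 and 54282 on saline replicates 2 and 3. Lum, a proteoglycan of collagen fibrils, had the highest difference of the 14, at 0.68 ± 0.23, and Limch1 the lowest, at -0.22 ± 0.11. Eln, the elastin gene, stood at 0.0042 ± 0.12.

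Pdgfrb (18596), the receptor of pericytes, had the lowest difference among the tested probe sets. On 1436970_a_at it read 1330, 1034 and 1371 with leptin and 2270 and 1213 with saline. The gap is that of saline replicate 2 alone, since saline replicate 3 lies among the leptin values. The difference was -0.42 ± 0.23, and it became 0.03 without saline replicate 2 and -0.87 without saline replicate 3. On 1417148_at it read 503, 759 and 645 with leptin and 796 and 591 with saline, a difference of -0.13 ± 0.20 that turned to 0.08 without saline replicate 2. Saline replicate 1 read 1566 and 132, so all 6 arrays gave -0.39 ± 0.33 and 0.61 ± 0.64. Of 8 pericyte markers 6 were lower (median -0.12), with a summed intensity of 5128 to 5653 with leptin against 5535 and 5884 on saline replicates 2 and 3, and groups that did not overlap for 2 of 8, near the 19.9% of all genes. With all 6 arrays 4 of the 8 were higher (median -0.17). The part of pericytes in the Pdgfrb values was not tested.

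**Figure D3:**
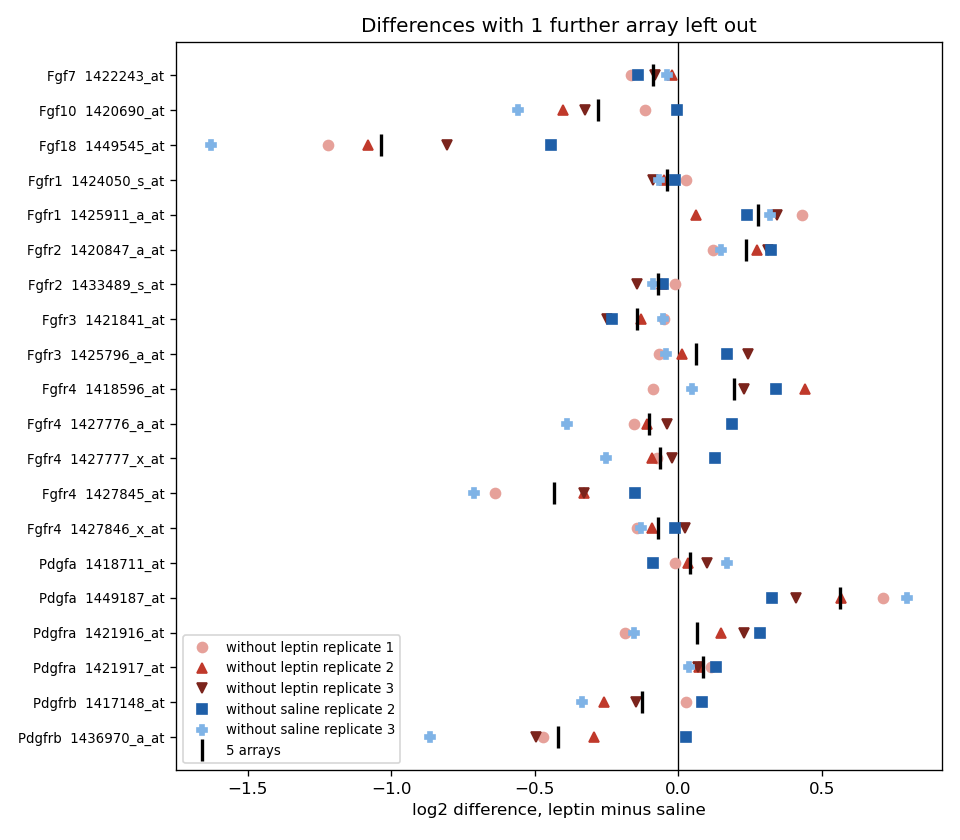
The log2 difference (horizontal axis) of each probe set on the 5 arrays (black bars) and with 1 more array left out (symbols). The points of Pdgfa 1449187_at stay above 0 and those of Fgf18 below it, and the points of 9 of the 16 tested probe sets lie on both sides of 0.

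The sign of 9 of the 16 differences turned with a single array. Of the 16 tested probe sets, 7 kept their sign in all 5 fits that left out 1 more array: those of Fgf7, Fgfr1 1425911_a_at, both of Fgfr2, Fgfr3 1421841_at, Pdgfa 1449187_at and Pdgfra 1421917_at. With saline replicate 1 added, the median difference of all probe sets was 0.02. That of the FGF and PDGF probe sets moved from 0.0017 to 0.33 (-0.02 with array weights). Of the 17 then tested, 10 were higher (51.3% of all probe sets), 7 differed by 1.5-fold (36.8%), 0 had an unadjusted limma p under 0.05 (0.385%), 0 passed the adjusted threshold (0.00%) and 0 met the series' rule (0.202%).

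The remaining genes of these pathways were described from 6 lists, with 1 probe set per gene. Of the 9365 genes tested, 48.3% were higher with leptin, 0.0534% passed the adjusted threshold, 4.28% had an unadjusted p under 0.05 and 19.9% had groups that did not overlap. No gene of the 6 pathway lists passed the adjusted threshold, and 1 of their 55 tested entries had an unadjusted p under 0.05.

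Among the other ligands, 5 of 19 FGF genes passed the filter, 3 higher and 2 lower (median 0.02). Fgf1, named here for its role, which binds all FGF receptors, stood at -0.05 ± 0.12. Fgf9, an epithelial and mesothelial signal to the mesenchyme, read 119.7, 111.1 and 111.0 with leptin and 102.8 and 104.1 with saline, a difference of 0.12 ± 0.24. Fgf4 was at 0.27 ± 0.27. Fgf2 was below the filter. Of the PDGF genes, Pdgfb, the endothelial ligand that recruits pericytes through Pdgfrb, was at -0.05 ± 0.13. Pdgfc read 98.7, 101.5 and 73.2 with leptin and 141.2 and 120.1 with saline, a difference of -0.44 ± 0.26, and Pdgfd was at 0.27 ± 0.28. On saline replicate 1 these last 2 read 1417 and 17.9.

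Of 16 co-receptor and heparan sulfate genes, which hold FGFs at the cell surface, 10 were higher and 6 lower (median 0.04), and 0 had an unadjusted p under 0.05. Fgfrl1, a decoy-like receptor without a kinase domain, was at 0.20 ± 0.17 with groups that did not overlap, and Glce, an enzyme of heparan sulfate synthesis, at -0.18 ± 0.16. Of 7 feedback and target genes, which report FGF signalling through ERK, 5 were higher and 2 lower (median 0.02), and 0 had groups that did not overlap. Dusp6, the ERK phosphatase, was at 0.21 ± 0.17 and Spred1, an inhibitor of the Ras pathway, at -0.15 ± 0.15.

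The adaptors that carry receptor signals to Ras and phosphoinositide 3-kinase had 11 of 14 values lower on the 5 arrays, at a median of -0.14 against -0.01 over all genes. With all 6 arrays this turned round, to 11 of the 14 higher at a median of 0.36. Grb2, which couples the receptors to Sos, read 691, 439 and 666 with leptin and 764 and 873 with saline. All leptin values lie below both saline values, and the difference was -0.46 ± 0.20. The unadjusted limma p was 0.0409 and the adjusted p was 1.00. Grb2 read 336 on saline replicate 1 and was at -0.05 with all 6 arrays. Sos2, picked out here after its values were seen, had the opposite sign, at 0.38 ± 0.19. Sos1, named beside it, had the sign of Grb2, at -0.11 ± 0.25. Of 10 Hedgehog and mesenchymal regulators 3 were higher and 7 lower (median -0.06), and with all 6 arrays 7 were higher (median 0.10). Tbx5, a transcription factor of the lung mesenchyme, was at -0.28 ± 0.16 and Gli2, a Hedgehog effector, at -0.50 ± 0.26.

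**Figure D4:**
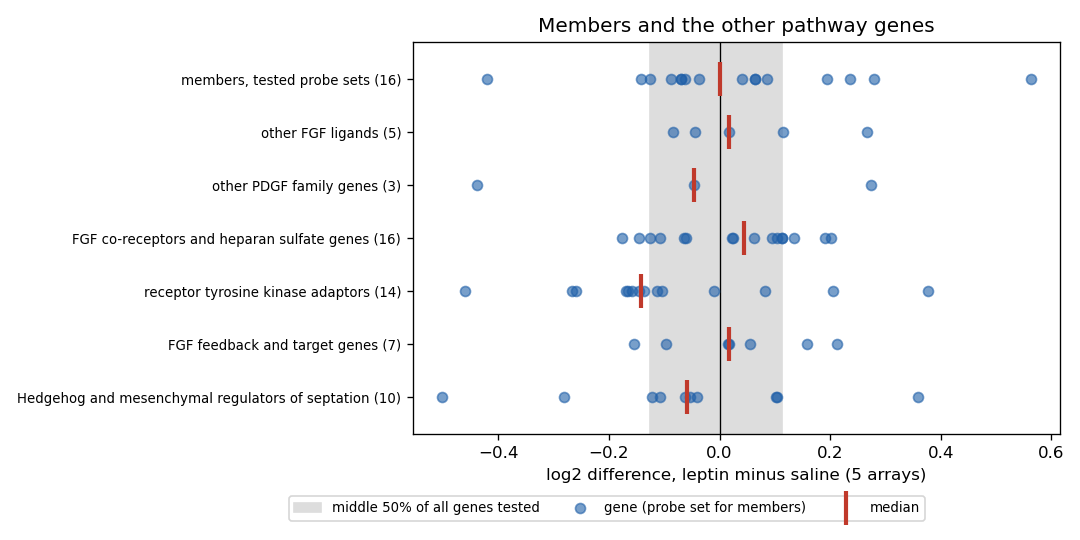
The log2 difference (horizontal axis) of the 16 tested FGF and PDGF probe sets and of the genes of 6 pathway lists, with medians as red bars and the middle 50% of all genes tested, -0.12 to 0.11, as a grey band. The medians of the lists lie inside the band except that of the receptor tyrosine kinase adaptors, at -0.14, which was 0.36 with all 6 arrays. The band is that of single genes, so it is no test of a median of several genes.

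Other cells of the lung were compared for context. Endothelial markers were higher in 8 of 9 (median 0.07), leukocyte markers in 4 of 5 (median 0.21) and cardiac muscle markers of the pulmonary veins in 1 of 5 (median -0.05). With all 6 arrays the numbers higher were 9, 2 and 4, at medians of 0.71, -0.006 and 0.50. Groups did not overlap for 6 of 14 fibroblast and myofibroblast markers (5 higher, 1 lower), 4 of 9 endothelial (all higher), and 1 of 7 type II, 2 of 3 mesothelial and 2 of 5 platelet markers (all lower), and for 0 of the cartilage, leukocyte and cardiac markers tested, against 19.9% of all genes. No gene of the marker lists passed the adjusted threshold. On saline replicate 1 the summed intensity of the alveolar type II markers was 13224, against 83382 to 94193 on the other 5 arrays, and that of the smooth muscle markers 1354 against 5583 to 6763.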

How the data were processed

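The deposited file holds 1 linear intensity per probe set and array, made by the authors, and the summarisation software is not given in the sources used here. Extraction used Trizol and labelling a small-sample procedure with repeated cDNA synthesis, per the labels' protocols. The mean without the lowest and highest 2% of probe sets was 500.10 to 500.14 on each array, so each had been scaled. Precision is limited by the number of arrays.

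The 64 control probe sets were left out. The platform's annotation gives 1 symbol to 20380 probe sets, several to 691 and none to 1555. Only the first kind was named, and all 10 genes matched RefSeq by Entrez Gene ID. Values were turned into log2(intensity + 22.0), the 10th percentile of all values. A filter removed the 30% of probe sets with the lowest mean, and 15838 entered limma 3.58.1 under R 4.3.3 (two-sided moderated test from lmFit and eBayes with trend, Benjamini-Hochberg, threshold 0.05). The limma p-values set each difference against the spread between these arrays, moderated across probe sets. Only the main limma fit was tested on simulated data, with independent noise. The alternative fits and the series' rule were not. The series names no test for its rule, and a pooled-variance 2-sample test was used.

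The genes and lists were chosen with earlier results of these data known. Named pathway genes are those with an unadjusted p under 0.05 and no overlap (up to 4 per list), or else the 2 with the smallest p. A listed gene is represented by the brightest of its tested probe sets. Markers, Fgf1, Fgf2, Pdgfb, Sos1 and Sos2 are named beside a gene described, chosen after their values were seen.

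The labels do not say that replicate numbers pair animals. Over the 15838 tested probe sets, deviations of same-numbered arrays correlated at 0.103 to 0.144 on all 6 arrays (others -0.147 to 0.0491). Without a filter the same-numbered values were 0.0609 to 0.111. Saline replicate 1, which stood apart, enters the deviation of every saline array, so these correlations are tied to one another. They therefore cannot decide whether the numbers pair the arrays. The block changed no call among the 10 genes. Alternatives are in the closing section.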

Additional observations from a re-analysis of the deposited data

How the results depend on the processing

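No alternative brought any of the 20 probe sets past the adjusted threshold, and 0 met the series' rule under those run for it (all 6 arrays, a pseudocount of 1, no filter, Benjamini-Hochberg and leaving out 1 more array). Over the array, the 7 probe sets past the threshold became 0 with all 6 arrays, the replicate block, no filter, no variance trend, a pseudocount of 1, scaling to equal medians and quantile normalization, 0 to 3 without 1 more array (0 without leptin replicate 1 or saline replicate 3, 2 without leptin replicate 3 or saline replicate 2, 3 without leptin replicate 2), and 13 at an adjusted p of 0.10. The count was 8 with all 6 arrays under array weights, 7 with a pseudocount at the 25th percentile and 6 with a filter at 50%. The 78 that met the series' rule became 32 with all 6 arrays, 242 without a filter, 72 to 145 without 1 more array (137 without saline replicate 2, 145 without saline replicate 3) and 0 after Benjamini-Hochberg. The median difference of the FGF and PDGF probe sets was 0.33 with all 6 arrays, -0.023 with array weights on them and -0.048 to 0.10 without 1 more array.

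The filter and variance trend settings cannot change the difference of a probe set, and the replicate block repeats the differences found without leptin replicate 1. Counted with these, 29 of 292 differences of single probe sets under alternatives, from 13 probe sets, changed sign. That share is therefore no measure of stability. Why single arrays read apart from the others was not tested. The changes of sign came only with arrays added, weighted, left out or blocked by replicate number. With all 6 arrays these were Fgf7 (0.42), Fgfr1 1424050_s_at (0.89), Fgfr3 1421841_at (1.01), Fgfr4 1427777_x_at (0.33), Pdgfa 1418711_at (-0.021) and 1449187_at (-0.20), Pdgfra 1421916_at (-0.12) and Pdgfrb 1417148_at (0.61), and with array weights Pdgfra 1421916_at (-0.012). With the replicate block they were Fgfr1 1424050_s_at (0.026), Fgfr3 1425796_a_at (-0.066), Fgfr4 1418596_at (-0.087), Pdgfa 1418711_at (-0.012), Pdgfra 1421916_at (-0.19) and Pdgfrb 1417148_at (0.028). That fit takes nothing from leptin replicate 1, whose number has no other array, and in it Pdgfa 1449187_at was at 0.71. Without 1 more array the range was -0.089 to 0.026 for Fgfr1 1424050_s_at, -0.066 to 0.24 for Fgfr3 1425796_a_at, -0.087 to 0.44 for Fgfr4 1418596_at, -0.39 to 0.19 for 1427776_a_at, -0.25 to 0.13 for 1427777_x_at and -0.14 to 0.025 for 1427846_x_at. For Pdgfa 1418711_at it was -0.089 to 0.17, for Pdgfra 1421916_at -0.19 to 0.28, and for Pdgfrb 1417148_at -0.33 to 0.082 and 1436970_a_at -0.87 to 0.026. Where 1 saline array is left, it is assumed to vary like the leptin arrays. Without detection calls, dim probe sets such as Fgf10 and Fgf18 cannot be told from background.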
